A study of Mus musculus with 13 samples.

Results

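The genes described here make or control the major histocompatibility complex (MHC) class II molecules, by which a cell shows peptides from engulfed proteins to helper T cells. Rows were chosen by symbol from a list of 6 names: Cd74, H2-Aa, H2-Ab1, H2-Eb1, H2-DMa and Ciita. Of these, 5 were found among 11761 listed genes, and H2-Ab1 was not analysed here. All 5 passed the filter of 1 CPM on average (read counts scaled by the library's effective size), which left 11643 genes.

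A class II molecule is a pair of an alpha and a beta chain. In the mouse, H2-Aa encodes the alpha chain and H2-Ab1 the beta chain of the I-A molecule, and H2-Eb1 encodes the beta chain of I-E. C57BL/6 mice carry a defective alpha-chain gene for I-E, so that I-E is not displayed on their cells although H2-Eb1 is transcribed. Cd74 is the invariant chain, which escorts new class II molecules to endosomes and blocks their groove. H2-DMa encodes the alpha chain of H2-M, which helps exchange the last invariant-chain fragment for a peptide. Ciita is the co-activator that switches these genes on without binding DNA itself. Dendritic cells and B cells express the set constitutively, activated macrophages express it too, and many other cells do so after interferon-gamma.

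RNA bound to ribosomes was taken from epididymal white fat of Adipoq-NuTRAP mice on the C57BL/6J background. HFD mice had eaten a high-fat diet and chow mice a standard chow for 10 weeks, with 3 libraries per diet. In mice of both diets, Cre driven from the adiponectin promoter switches on a GFP-tagged ribosomal protein in adipocytes, and an antibody against GFP pulled ribosomes from homogenate of the whole tissue (translating ribosome affinity purification, TRAP). Age, sex and the number of animals behind a library are not given in the labels used here, so each p-value reflects library-to-library spread that could be technical in part. The other 7 of the 13 samples are chromatin samples and were not analysed here.

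Effective library size, read from the steps between low values, was 31980000 to 39400000 reads in HFD, and 23200000, 32470000 and 7430000 reads in chow replicates 1, 2 and 3. In the shallowest of them, chow replicate 3, a single read equals 0.135 CPM, and in the rest at most 0.0431 CPM. The 10 adipocyte markers were present throughout, with summed levels of 15350 to 17440 CPM in HFD and 17635 to 27861 CPM in chow. Over all genes, limma called 2221 higher and 1863 lower in HFD (Benjamini-Hochberg adjusted p under 0.05). The counts were 2515 and 1334 with equal library totals, and 5300 and 367 when libraries were scaled to the median adipocyte marker, which moved the median of all genes by 0.50 on the log2 scale. Of the 10 adipocyte markers, 6 were called lower and 1, Lep, higher in HFD (background 16.0% lower and 19.1% higher). Their median log2 fold change was -0.58, so the set used for this scaling itself differed between the diets. A pair of libraries stood apart in ways that touch the class II genes. Chow replicate 2 was high in Irf1 and Socs1, genes of the interferon response, and HFD replicate 1 was high in the B cell marker Cd22. Where leaving out either library ended a call of a gene named below, this is said beside it. Brd2, Msln, Upk3b and Cd14 are exceptions: how their calls depend on single libraries is not reported here.

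The class II genes have a shared promoter layout. Sequences are printed for H2-Aa, H2-Eb1 and their neighbour H2-DMb1, whose promoters held both motifs described below. All of these genes were higher in HFD, as were H2-DMa and H2-Ob, whose promoters did not hold both motifs. As background, an X box is bound by the RFX complex and CREB, a Y box by NF-Y, and Ciita docks on these factors. RefSeq promoter windows of GRCm38.p6, from 250 bases before to 50 bases after the start site, were examined by name for 3 of the 6 members. These were H2-Aa, H2-Eb1 and H2-DMa, and the promoters of the other members are not described here. Each sequence below reads 5′ to 3′ on the gene's own strand, with the core of the X box and then the core of the Y box in capitals.
H2-Aa promoter, chr17:34287774-34288073, minus strand: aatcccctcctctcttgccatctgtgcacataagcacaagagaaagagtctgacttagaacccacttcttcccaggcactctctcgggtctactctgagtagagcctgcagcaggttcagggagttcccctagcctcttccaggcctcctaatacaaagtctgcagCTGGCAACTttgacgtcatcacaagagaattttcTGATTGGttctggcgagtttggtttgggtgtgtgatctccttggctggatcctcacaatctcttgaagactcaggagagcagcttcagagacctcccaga
H2-Eb1 promoter, chr17:34305617-34305916, plus strand: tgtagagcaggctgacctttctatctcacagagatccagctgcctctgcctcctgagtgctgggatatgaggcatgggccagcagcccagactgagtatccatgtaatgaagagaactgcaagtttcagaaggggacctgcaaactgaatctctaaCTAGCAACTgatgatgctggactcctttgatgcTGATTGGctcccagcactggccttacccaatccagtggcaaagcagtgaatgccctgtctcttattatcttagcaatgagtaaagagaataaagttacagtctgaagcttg
H2-DMb1 promoter, chr17:34152941-34153240, plus strand: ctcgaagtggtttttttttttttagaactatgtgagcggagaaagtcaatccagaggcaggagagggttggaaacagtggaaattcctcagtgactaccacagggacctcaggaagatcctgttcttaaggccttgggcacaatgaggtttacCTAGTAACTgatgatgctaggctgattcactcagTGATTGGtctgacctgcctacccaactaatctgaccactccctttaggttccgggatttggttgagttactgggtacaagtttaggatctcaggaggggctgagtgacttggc

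The X motif was searched as CTNGNAACT and the Y motif as TGATTGG, on both strands; they do not overlap, and their letters were chosen after these promoters had been read. In H2-Aa the X motif began 84 bases and the Y motif 50 bases before the start site, with 25 bases between them. In H2-Eb1 they began 94 and 61 bases before the start site, with 24 bases between them. In H2-DMb1 they began 97 and 63 bases before it, with 25 bases between. Of 32851 promoter windows, 4.10% held the X motif and 7.82% the Y motif. An X motif followed on the same strand by a Y motif after 20 to 30 bases was present in 5 windows (0.0152%), of which 3 are those printed. H2-DMa has 2 windows in the table, and these letters were in neither of them. The windows of H2-DMb2, H2-Ob, H2-Oa and H2-Eb2 held the Y motif and not the X motif as spelled here. A match is a description of letters, and binding was not measured at these promoters here.

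All 5 measured class II genes were higher in HFD, and their levels did not overlap between the diets. The invariant-chain gene Cd74 was 5.38-fold, the alpha-chain gene H2-Aa 5.01-fold and the beta-chain gene H2-Eb1 4.20-fold higher in mean CPM. The co-activator gene Ciita was 3.62-fold and H2-DMa 2.73-fold higher. Over all genes tested, 35.1% were called in either direction and 19.1% higher in HFD. With no overlap between the diets' libraries, 25.2% were higher and 25.0% lower. The median log2 fold change of the 5 genes was 2.03, beside -0.004 for all genes tested.

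**Figure D1:**
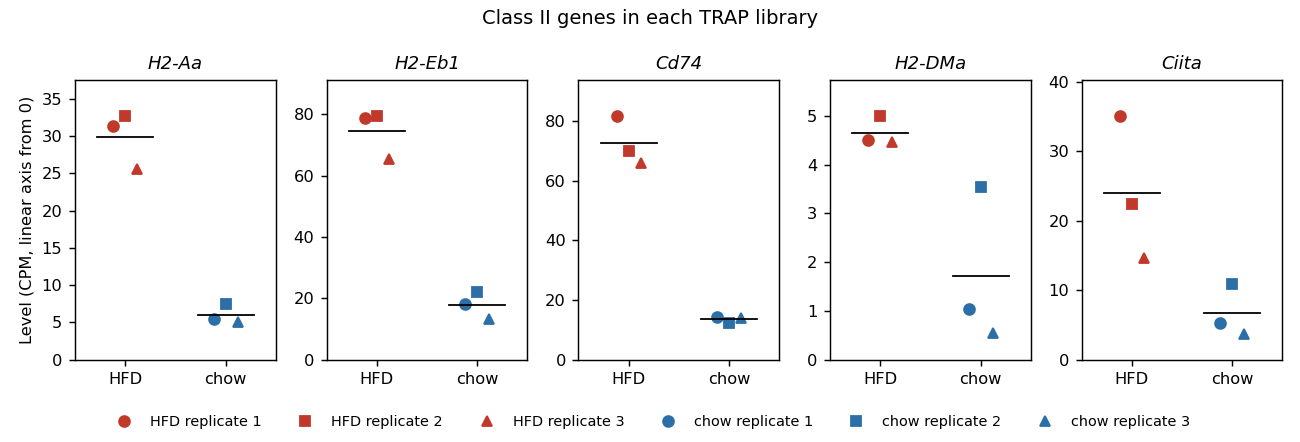
Level of each class II gene in CPM (linear axis from 0) in the 3 HFD libraries (red) and the 3 chow libraries (blue), with horizontal lines at the diet means and a marker shape for each replicate number. In all 5 panels every HFD library lies above every chow library, and the gap is narrowest in H2-DMa (4.47 CPM in HFD replicate 3 against 3.53 CPM in chow replicate 2) and Ciita (14.6 CPM in HFD replicate 3 against 10.9 CPM in chow replicate 2).

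Both measured chain genes of the peptide groove were higher in every HFD library than in every chow library. H2-Aa had 31.3, 32.7 and 25.6 CPM in HFD replicates 1, 2 and 3, against 5.50, 7.41 and 4.99 CPM in chow replicates 1, 2 and 3. The HFD libraries lay close together and stood far above all chow libraries. H2-Aa averaged 29.9 ± 3.74 CPM in HFD and 5.97 ± 1.28 CPM in chow (SD, n = 3 each), with a log2 fold change of 2.16 (SE 0.19, limma adjusted p 6.06e-05). H2-Eb1 had 78.8, 79.3 and 65.3 CPM in HFD libraries, against 18.0, 22.0 and 13.2 CPM in chow libraries. In both chain genes HFD replicate 3 was the lowest of its diet, chow replicate 2 the highest and chow replicate 3 the lowest of theirs. The log2 fold change of H2-Eb1 was 2.03 (SE 0.19, limma adjusted p 8.10e-05). On GRCm38.p6, H2-Aa lies on chromosome 17 at 34282744 to 34287823 and H2-Eb1 on chromosome 17 at 34305867 to 34316674, and neither span overlaps another annotated gene. Reads shared with close relatives among the class II chains cannot be assigned with certainty, and how the authors' counting treated them is not stated in the sources.

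The invariant chain was the steadiest of the 5 within chow and had the smallest adjusted p. Cd74 had 81.6, 70.0 and 65.8 CPM in HFD libraries, against 14.1, 12.4 and 13.9 CPM in chow libraries. Its highest chow library exceeded the lowest by 1.14-fold, and chow replicate 2, high in the other 4 genes, was here the lowest. With limma the log2 fold change was 2.34 (SE 0.14), with an adjusted p of 8.96e-06. Cd74 lies on chromosome 18 at 60803849 to 60812652, a span that holds the microRNA gene Mir5107.

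H2-DMa, for the peptide exchanger, had the fewest reads of the 5 and the largest adjusted p. It had 4.50, 4.99 and 4.47 CPM in HFD libraries, against 1.04, 3.53 and 0.547 CPM in chow libraries. These chow values stand for about 24, 114 and 4 reads, so that the shallow chow replicate 3 adds little precision. Chow replicate 2 lay near the HFD libraries, and the other chow libraries lay well below. With limma the log2 fold change was 1.22 (SE 0.38), with an adjusted p of 0.0327. The call was lost with quantile normalization (0.62, adjusted p 0.164), with voom weights (1.45, adjusted p 0.0531) and without HFD replicate 1, 2 or 3 or chow replicate 1 or 3 (limma adjusted p 0.0742 to 0.0921 for the HFD libraries, 0.0706 and 0.0884 for the chow libraries). Without chow replicate 2 it was held, with a log2 fold change of 1.67 (limma adjusted p 0.00434), and the ratio of mean CPM was 5.86 in place of 2.73. H2-DMa lies on chromosome 17 at 34119693 to 34139101, and its annotated span overlaps Brd2. Brd2 was lower in HFD by 0.40 on the log2 scale (limma adjusted p 0.0310); since the library kit does not mark strand, reads from shared exons could not be told apart, and whether exons overlap was not checked.

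Ciita, the co-activator, had the widest spread within each diet among the members called in all settings. It had 35.0, 22.3 and 14.6 CPM in HFD replicates 1, 2 and 3, against 5.31, 10.9 and 3.66 CPM in chow replicates 1, 2 and 3. The highest HFD library exceeded the lowest by 2.39-fold, where the same ratio was 1.12 to 1.27 for the other 4 genes. HFD replicate 3 was the lowest HFD library in all 5 genes, and chow replicate 3 the lowest chow library in 4. The log2 fold change of Ciita was 1.74 (SE 0.38, limma adjusted p 0.00692), and it passed in all 15 alternatives, with values of 1.44 to 2.21. It was 1.44 (limma adjusted p 0.0296) without HFD replicate 1 and 2.12 (adjusted p 0.00207) without chow replicate 2. Ciita lies on chromosome 16 at 10480014 to 10531064, and its span overlaps Dexi, which differed by -0.54 on the log2 scale (limma adjusted p 0.0729).

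The other class II chains and the chaperone subunits moved the same way where they were measured. Of 7 such genes, 2 had rows, and both rose. H2-DMb1, the beta chain that pairs with H2-DMa, had 15.9, 23.6 and 37.5 CPM in HFD replicates 1, 2 and 3, against 1.91, 2.85 and 1.62 CPM in chow replicates 1, 2 and 3. It was highest in HFD replicate 3, the library lowest in the 5 members. It rose by 3.03 on the log2 scale (SE 0.30, limma adjusted p 0.000113), and H2-DMb1 has a close copy, H2-DMb2, so its level is uncertain. H2-Ob, the beta chain of H2-O, a brake on H2-M, had 4.11, 1.23 and 0.847 CPM in HFD libraries and 0.0947, 0.224 and 0.00867 CPM in chow libraries, the last being the lowest value of the table. Its log2 fold change was 1.32 (limma adjusted p 0.0345), a call lost in 7 of 14 alternatives, among them leaving out any library but HFD replicate 3 (limma adjusted p 0.0567 to 0.0940). Without HFD replicate 1 the log2 fold change of H2-Ob was 0.88, and with quantile normalization 0.67.

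The pathway list held 36 genes with rows besides the members, of which 13 rose, 8 fell and 15 did not pass (background 19.1% higher and 16.0% lower). Its median log2 fold change was 0.21. The fallen genes numbered 4 without HFD replicate 2, 3 without HFD replicate 3 and 5 without chow replicate 3. Under scaling to the median adipocyte marker, 21 rose and 1 fell.

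**Figure D2:**
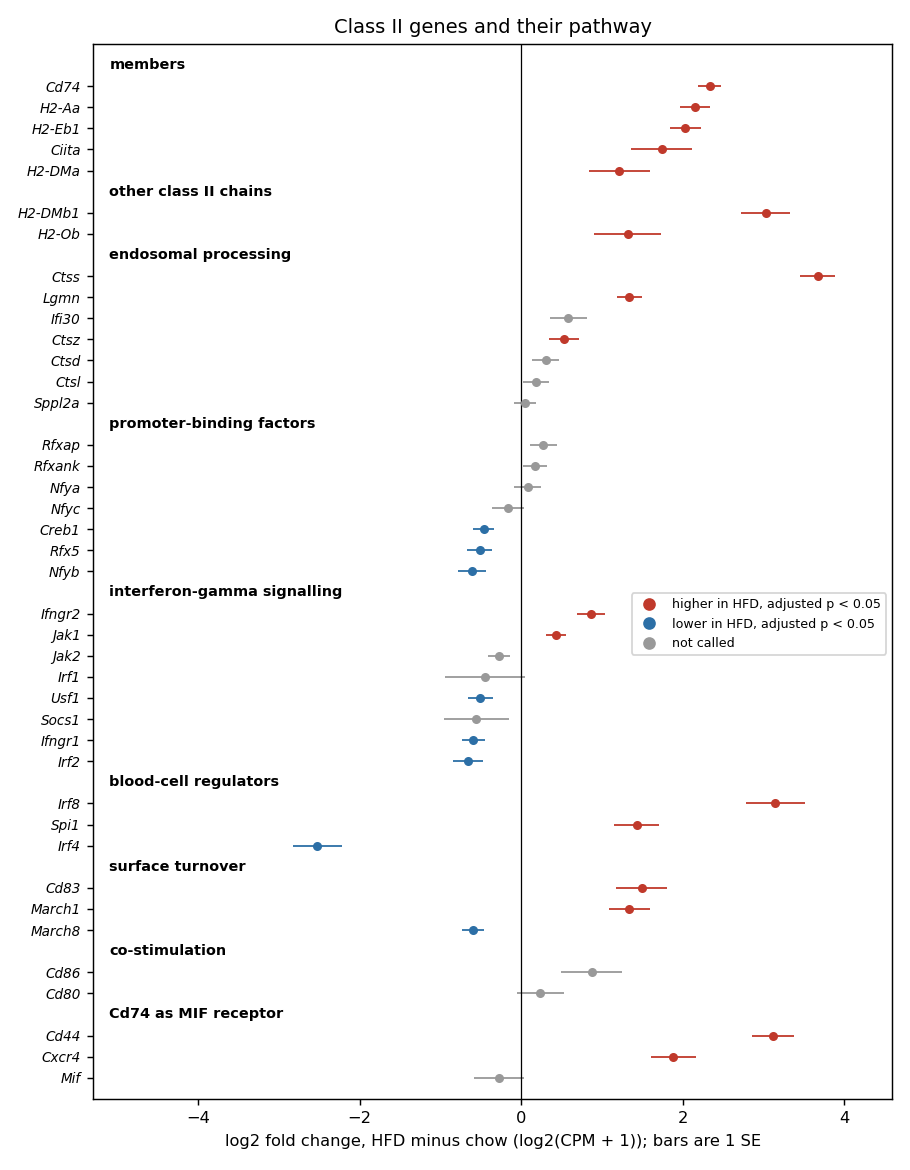
Log2 fold change (HFD minus chow, on log2(CPM + 1)) with 1 SE for the 5 class II genes and the pathway genes reported here, by role. Red marks genes higher and blue genes lower in HFD at an adjusted p under 0.05, and grey genes that did not pass. The members lie between 1.22 and 2.34, Ctss is highest at 3.68 and Irf4 lowest at -2.52.

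Among genes of endosomal processing, 3 of 7 rose and 0 fell (background 19.1% higher and 16.0% lower). Ctss encodes cathepsin S, the protease that trims the invariant chain in antigen-presenting cells. It had 47.5, 28.6 and 39.1 CPM in HFD libraries, against 1.73, 2.20 and 2.16 CPM in chow libraries. Every HFD library stood far above every chow library, with a log2 fold change of 3.68 (SE 0.22, limma adjusted p 7.93e-06). Lgmn, for the endopeptidase legumain, had 62.7, 49.2 and 63.1 CPM in HFD libraries and 19.2, 23.3 and 24.8 CPM in chow libraries (log2 fold change 1.34, limma adjusted p 0.000276). Ctsz, another cathepsin gene, rose by 0.53 and lost its call in 7 of 15 alternatives, among them leaving out any library but chow replicate 3. Ifi30, the thiol reductase that opens disulphide bonds of antigens, had 7.16, 5.74 and 5.03 CPM in HFD libraries and 3.58, 2.93 and 4.47 CPM in chow libraries, and did not pass (0.58, limma adjusted p 0.0773), but passed without chow replicate 3 (0.71, adjusted p 0.0487) and with equal totals or adipocyte marker scaling.

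None of the genes for factors that sit on the X and Y boxes printed above was called higher under the deposited scaling. Of 7 genes for RFX, NF-Y and CREB subunits, 0 rose and 3 fell under the deposited scaling (background 19.1% higher and 16.0% lower). Rfx5, the subunit of RFX that binds DNA, had 16.2, 13.5 and 13.2 CPM in HFD libraries and 21.4, 19.7 and 21.3 CPM in chow libraries. The HFD libraries lay below all chow libraries. Rfx5 had a log2 fold change of -0.51 (limma adjusted p 0.0284), Nfyb of -0.61 (0.0208) and Creb1 of -0.46 (0.0209). The call of Rfx5 was lost without HFD replicate 2 or 3 or chow replicate 1 or 2, that of Nfyb without HFD replicate 1 or 3 or chow replicate 3, and that of Creb1 without any one HFD library (limma adjusted p 0.0523 to 0.121). Over these leave-outs Rfx5 kept a log2 fold change of -0.46 to -0.55, and its call was also lost with equal totals (-0.41, limma adjusted p 0.0844). Under scaling to the median adipocyte marker the values were -0.005 for Rfx5, -0.09 for Nfyb and 0.07 for Creb1, with limma adjusted p-values of 0.741 to 0.985, while the median of all genes was 0.50.

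Genes of interferon-gamma signalling, which induces Ciita in many cell types, went both ways, with 2 risen and 3 fallen of 9 (background 19.1% higher and 16.0% lower). The receptor chain gene Ifngr2 rose by 0.87 (limma adjusted p 0.00438) and the kinase gene Jak1 by 0.43 (adjusted p 0.0225), while the other receptor chain gene Ifngr1 fell by 0.59 (adjusted p 0.0111). Irf2 (-0.66) and Usf1 (-0.50) fell as well, and under scaling to the median adipocyte marker Ifngr1 stood at -0.05, Irf2 at -0.14 and Usf1 at 0.02, none of them called. Leaving out 1 library ended the call of Jak1 (HFD replicate 2 or 3, chow replicate 1), Irf2 (HFD replicate 2 or 3, chow replicate 3) and Usf1 (HFD replicate 2 or 3, chow replicate 2 or 3), and equal totals ended that of Usf1 (-0.39, limma adjusted p 0.0617). Ifng itself was not analysed here.

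Irf1, which acts on the Ciita promoter, did not pass and had its highest value in chow. It had 31.1, 39.7 and 23.9 CPM in HFD libraries, against 28.2, 113 and 23.8 CPM in chow libraries. Chow replicate 2 stood above all other libraries, and the remaining chow libraries lay in or near the HFD range. The log2 fold change of Irf1 was -0.45 (SE 0.49, limma adjusted p 0.508). Without chow replicate 2 it was 0.25 (adjusted p 0.434), and under adipocyte marker scaling 0.07.

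Chow replicate 2 exceeded the mean of chow replicates 1 and 3 by 4.35-fold in Irf1 and 3.62-fold in Socs1, the feedback inhibitor of this pathway. The same ratio was 4.44 for H2-DMa, 2.44 for Ciita, 1.41 for H2-Aa, 1.41 for H2-Eb1 and 0.883 for Cd74. Irf1 and Socs1 were thus highest in the chow library in which Ciita and H2-DMa were high. Ciita in HFD averaged 5.35 times the mean of chow replicates 1 and 3, while Irf1 in HFD stood at 1.21 and Socs1 at 0.821 times it. The part of the interferon genes in the level of the class II genes was not tested.

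**Figure D3:**
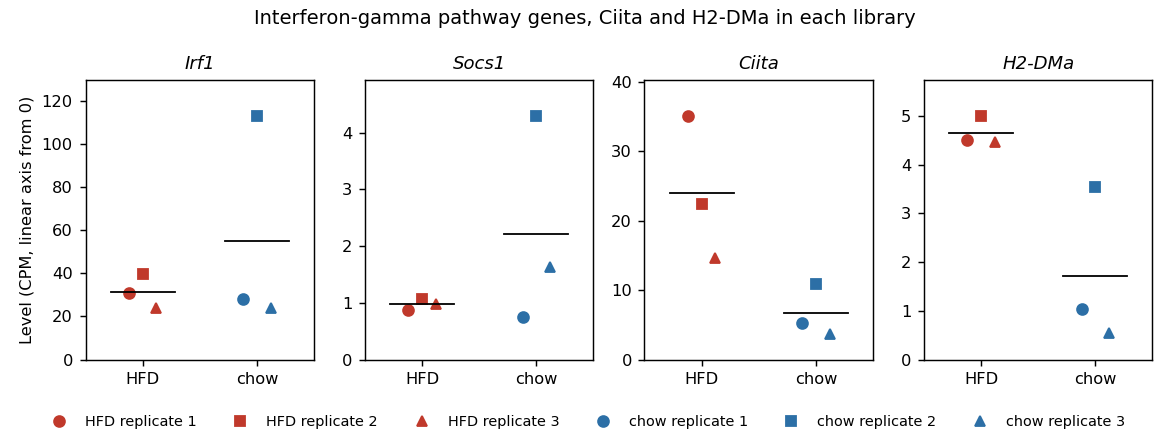
Level in CPM (linear axis from 0) of Irf1, Socs1, Ciita and H2-DMa in the HFD libraries (red) and the chow libraries (blue), with horizontal lines at the diet means. Chow replicate 2 (blue square) is the highest library in Irf1, with 113 CPM, and in Socs1, and the highest chow library in Ciita and H2-DMa, below all HFD libraries.

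Regulators of Ciita in blood cells were measured at 3 of 4 genes, of which 2 rose and 1 fell (background 19.1% higher and 16.0% lower). Irf8, a factor of dendritic cells, B cells and macrophages, had 46.9, 42.5 and 34.8 CPM in HFD libraries, against 3.76, 7.57 and 1.62 CPM in chow libraries. Its order over the libraries was that of Ciita within each diet, and the diets did not overlap (log2 fold change 3.15, limma adjusted p 0.000243). Spi1, for the myeloid and B cell factor PU.1, rose by 1.43 (limma adjusted p 0.0041), a call lost with quantile normalization (0.67, adjusted p 0.0602). Irf4, which is also made by adipocytes, fell to 5.58, 4.96 and 5.50 CPM in HFD libraries, against 25.1, 27.7 and 63.6 CPM in chow libraries (log2 fold change -2.52, limma adjusted p 0.000333).

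Genes that act on class II molecules at the cell surface were mixed. March1, whose ubiquitin ligase removes class II molecules from the surface, rose by 1.34 (limma adjusted p 0.00331), and Cd83, which opposes it, by 1.49 (adjusted p 0.0063). With quantile normalization March1 stood at 0.74 (limma adjusted p 0.0411), and Cd83 at 0.82, no longer called (adjusted p 0.0720). The related ligase gene March8 fell to 180, 214 and 184 CPM in HFD libraries, against 292, 260 and 324 CPM in chow libraries (-0.60, limma adjusted p 0.00783, and -0.06, not called, under adipocyte marker scaling). The co-stimulatory genes Cd80 and Cd86 did not pass, Cd86 with 1.85, 2.39 and 0.722 CPM in HFD libraries and 0.914, 0.409 and 0.00867 CPM in chow libraries. At these levels, about 3 reads make 0.404 CPM in the shallowest library, and the difference in Cd86 was 0.87 (SE 0.38, limma adjusted p 0.105). Under adipocyte marker scaling Cd86 was called higher (1.07, adjusted p 0.0297), and with quantile normalization it stood at 0.15. Cd74 also serves as a receptor for the cytokine MIF: its partners Cd44 (3.12, limma adjusted p 4.42e-05) and Cxcr4 (1.88) rose, and Mif was not called (-0.28).

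Markers of the blood cells that normally carry class II molecules were higher in HFD, beside every result above. Of 8 shared leukocyte markers 7 were tested, and 6 rose and 0 fell. Their summed level was 219.8, 146 and 123 CPM in HFD replicates 1, 2 and 3, against 24.8, 23.0 and 20.2 CPM in chow replicates 1, 2 and 3. Of 15 macrophage markers 12 rose and 1 fell, with sums of 333 to 489 CPM in HFD and 155 to 197 CPM in chow. In bulk libraries, more cells of a type and more RNA per cell cannot be told apart. Only adipocyte ribosomes carry the tag, so a pull-down is meant to leave out the RNA of blood cells, and whether these marker reads came from other cells carried along with it was not tested.

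Ptprc, the pan-leukocyte antigen CD45, had 97.7, 55.3 and 54.9 CPM in HFD libraries and 10.9, 10.6 and 10.5 CPM in chow libraries. Of the macrophage markers, Adgre1 rose by 2.77 and Cd68 by 2.09. The 1 that fell was Cd14, with a log2 fold change of -2.22 (limma adjusted p 0.000209). Of 11 dendritic cell markers 6 were listed and 5 tested, of which 3 rose, with sums of 50.0 to 82.7 CPM in HFD and 16.7 to 20.9 CPM in chow. Zbtb46 was not called, with means of 7.99 CPM in HFD and 7.10 CPM in chow (log2 fold change 0.10, limma adjusted p 0.790). Itgax, for the dendritic cell integrin CD11c that macrophages of obese fat also carry, had 40.5, 22.6 and 37.5 CPM in HFD libraries, against 1.52, 1.77 and 2.03 CPM in chow libraries. Flt3 and Xcr1 had no row.

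B cell markers were few, with 3 of 9 listed and sums of 22.1, 3.95 and 2.08 CPM in HFD libraries, against 1.71, 0.826 and 1.10 CPM in chow libraries. Cd22 had 7.67, 1.23 and 1.00 CPM in HFD libraries, against 0.0947, 0.0703 and 0.00867 CPM in chow libraries, the last being the table's lowest value. Cd22 was called (1.68, limma adjusted p 0.0340) and had a log2 fold change of 1.00 without HFD replicate 1 (adjusted p 0.0593) and 1.11 with quantile normalization (adjusted p 0.118), neither called. Without chow replicate 2 or 3 its call was lost at a near-equal size (1.69 and 1.64, limma adjusted p 0.0676 and 0.0837). HFD replicate 1 was thus the library highest in B cell markers and in Ciita, Cd74 and the shared leukocyte markers. It was also highest in the summed macrophage (489 CPM), dendritic cell (82.7 CPM) and endothelial markers (252 CPM). H2-Aa, H2-Eb1 and H2-DMa were highest in HFD replicate 2. Ciita, Cd74, H2-Aa and H2-Eb1 were called without HFD replicate 1 too (limma, 4 of 5 members). Of 11 T cell and innate lymphoid markers only Cd2 had a row, at 0.895 to 1.13 CPM in HFD and 0.138 to 0.547 CPM in chow. The part of these cells in the class II levels was not tested.

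**Figure D4:**
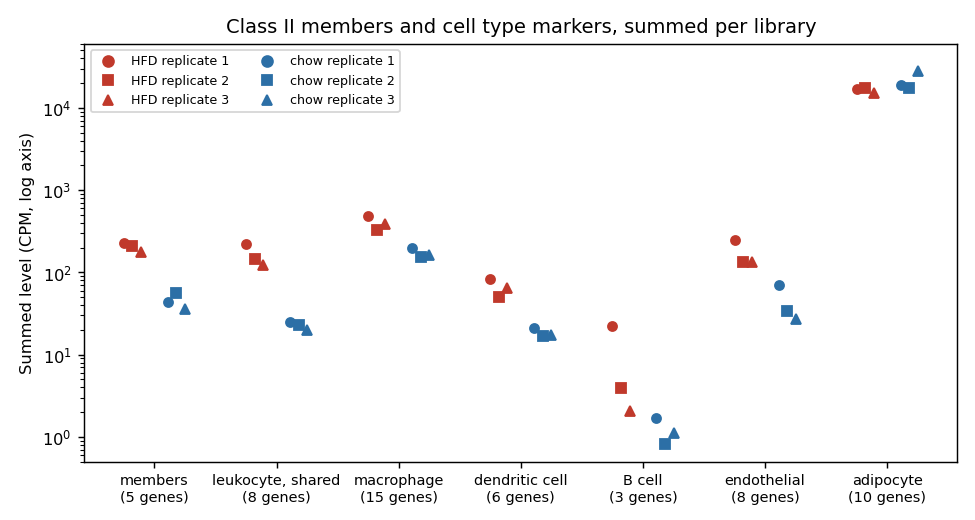
Summed level in CPM (log axis) of the 5 class II genes and of the listed markers of 6 cell classes in each library, HFD in red left of chow in blue. The members sum to 176 to 231 CPM in HFD and 36.3 to 56.3 CPM in chow. The leukocyte, macrophage, dendritic cell, B cell and endothelial sums are separated in the same direction. The adipocyte sum of every HFD library lies below that of every chow library.

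Set against these markers, the direction depended on the marker list. Per 100 CPM of shared leukocyte markers, Cd74 stood at 37.1, 47.9 and 53.3 CPM in HFD replicates 1, 2 and 3, and at 57.0, 53.8 and 68.8 CPM in chow replicates 1, 2 and 3. Cd74, H2-Eb1 and Ciita were lower in every HFD library than in every chow library on this scale, and H2-Aa and H2-DMa overlapped. Per 100 CPM of macrophage markers, Cd74 stood at 16.7, 21.0 and 16.8 CPM in HFD libraries and at 7.17, 8.01 and 8.65 CPM in chow libraries. Cd74, H2-Aa and H2-Eb1 were higher in every HFD library on that scale, and Ciita and H2-DMa overlapped.

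The summed levels behind these ratios moved by different amounts: HFD stood at 7.20 times chow for the shared leukocyte markers, 2.37 times for the macrophage markers and 4.51 times for the members. The median log2 fold changes of single genes lay closer together, at 2.02, 1.74 and 2.03. Among the macrophage markers, Mertk, with means of 41.7 CPM in HFD and 51.0 CPM in chow, and Cd163, with 50.8 CPM in HFD and 37.1 CPM in chow, were not called, and the chow sum averaged 171 CPM. The fallen marker Cd14 had means of 2.28 CPM in HFD and 14.2 CPM in chow. Whether the direction on the macrophage scale depends on which genes the list holds was not tested. Levels here are not per length, so these ratios compare libraries and not genes, and no test was run on them.

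**Figure D5:**
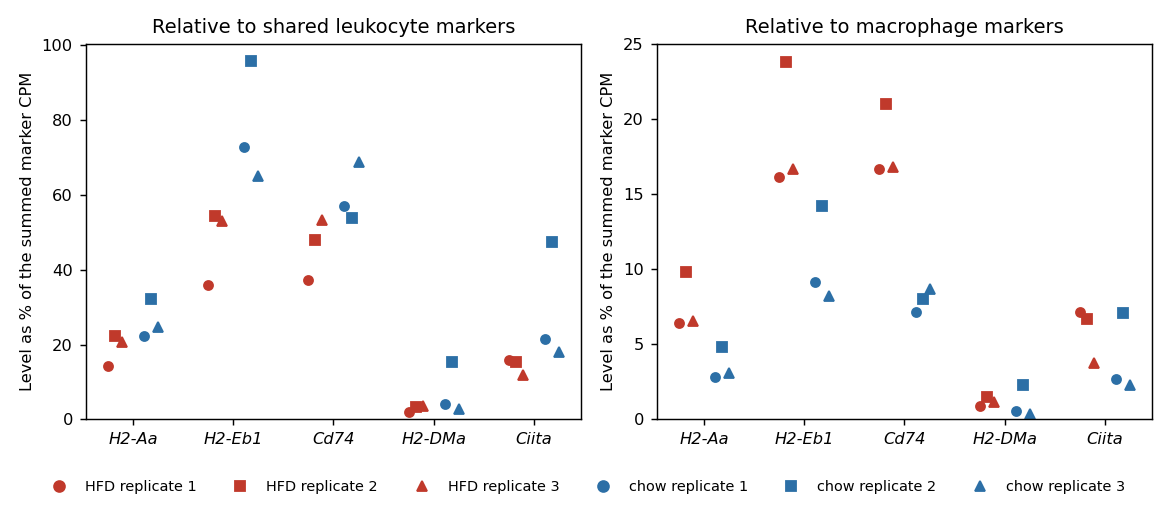
Level of each class II gene in CPM per 100 CPM of summed shared leukocyte markers (left) and per 100 CPM of summed macrophage markers (right), with HFD libraries in red left of chow libraries in blue. Cd74 lies at 37.1 to 53.3 in HFD and 53.8 to 68.8 in chow on the left, and at 16.7 to 21.0 in HFD and 7.17 to 8.65 in chow on the right.

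The genes most like the class II genes over the 6 libraries were sought by the root mean square difference between log2(CPM + 1) profiles, each centred on its mean, from the median profile of the 5 members. Among the 10314 other genes that averaged 5 CPM or more, the 8 nearest were Fam111a, Trp53cor1, Lep, Mapkapk3, C1qb, Fam196b, Cryab and Clic1. Their differences ran from 0.109 on the log2 scale for Fam111a to 0.184 for Clic1. Lep, the hormone gene of adipocytes, stood at 0.130, with 5149, 6472 and 4871 CPM in HFD libraries and 1193, 1468 and 1010 CPM in chow libraries. C1qb, a complement gene of macrophages, stood at 0.179, with 17.4, 14.6 and 11.6 CPM in HFD libraries and 2.30, 2.45 and 2.16 CPM in chow libraries. An adipocyte gene and a macrophage gene thus both lay near the profile. The members are part of the median profile, so their own distances are no measure of likeness to it: H2-Eb1 stood at 0.0555, H2-Aa at 0.0798, Cd74 at 0.276 and Ciita at 0.379. With 6 libraries in 2 diets, likeness is mainly a similar size of difference between the diets.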

How the data were processed

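The members and gene lists were chosen with earlier results of these data known. The authors deposited log2 CPM per gene, 1 column per library, rounded to 2 decimals, and the scale was read from the values, whose anti-logs sum to 984422 to 1182123 per library. HISAT2, featureCounts, Picard, edgeR and build mm10 appear in the submitters' processing notes, without roles or versions. Each value was turned back into CPM, and log2(CPM + 1) was tested with limma 3.58.1 in R 4.3.3 (trended eBayes, two-sided) over the 11643 genes that averaged 1 CPM or more. P-values were adjusted by Benjamini-Hochberg over all of them. Fold changes are HFD minus chow and understate the change of low genes. The script was tested on simulated data. Effective library sizes are the smallest at which all low values (under 20 reads) are whole within 0.1 of a read. Limits from 3 reads cover counting error only. Named genes were the members, called pathway genes with values for at most 3 per list with a mean of at least 5 CPM (others chosen after their values were seen, such as Socs1, Cd22 and H2-Ob), 6 fixed pathway genes, defining markers and the 8 nearest profiles. Alternatives were a pseudocount of 0.5, the deposited log2 values, no filter, 5 CPM, equal totals, quantile normalization, adipocyte marker scaling, voom weights, a replicate block and leaving out each library. Coordinates are RefSeq's on GRCm38.p6, the assembly mm10 denotes. Some listed genes that count in the list totals are not reported here by name.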

Additional observations from a re-analysis of the deposited data

How the results depend on the processing

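The 5 class II members were called in the reported fit, with equal totals, adipocyte marker scaling, a pseudocount of 0.5, the deposited log2 values, no filter and a replicate block. With quantile normalization or voom weights 4 were called, and at 5 CPM 4 of 4 were called because H2-DMa was not tested. Leaving out each library gave 4 to 5 called members, 10 to 14 risen and 3 to 8 fallen pathway genes, against 13 and 8 in the reported fit. At a mean of at least 5 CPM 7 pathway genes rose, of 27 tested. Adipocyte marker scaling gave 21 risen and 1 fallen, with signs turned for Creb1 (0.0675), Usf1 (0.0210) and Irf1 (0.0727). Leaving out a library gave -0.855 to 0.247 for Irf1, which turned without chow replicate 2. Cd74, H2-Aa, H2-Eb1 and Ciita kept their direction and their call in all 15 alternatives, at 2.25 to 2.85, 1.99 to 2.64, 1.85 to 2.55 and 1.44 to 2.21. Replicate numbers were not taken as pairs, since the labels do not say that they pair samples. Deviations of same-numbered libraries correlated across genes at 0.43, 0.23 and 0.09. Each HFD library correlated best with the chow library of its own number, while chow replicate 3 correlated best with HFD replicate 2 (0.15). Whether the numbers mark a shared batch was not tested. The replicate block gave 5 called members and 13 risen and 9 fallen pathway genes. Over all genes it called 2594 higher and 2245 lower, against 2221 and 1863 in the reported fit. Some genes of few reads moved between quantile normalization and the deposited log2 values, from 0.67 to 3.09 for Spi1, 0.82 to 2.56 for Cd83 and 0.74 to 1.91 for March1. Socs1, not called in the reported fit, was called lower with quantile normalization (-1.22, limma adjusted p 0.0304). Depth limits genes with few chow reads, such as H2-DMa, H2-Ob, Spi1, Cd86 and Cd22.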

Other observations

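Within HFD, H2-DMb1 ran in the order opposite to that of Ciita and Cd74. H2-DMb1 was highest in HFD replicate 3 (37.5 CPM) and lowest in HFD replicate 1 (15.9 CPM). Ciita had 14.6 CPM in HFD replicate 3 and 35.0 CPM in HFD replicate 1. H2-Aa, H2-Eb1 and H2-DMa were highest in HFD replicate 2. HFD replicate 3 was also the library highest in mesothelial markers, the cells that line the fat pad, with a summed level of 132 CPM against 43.4 and 40.9 CPM in HFD replicates 1 and 2 and 18.6 to 30.5 CPM in chow. Of these 6 markers 2 rose over the diets, Msln and Upk3b. Endothelial markers were highest in HFD replicate 1, with sums of 252, 133 and 135 CPM in HFD replicates 1, 2 and 3 and 26.9 to 70.2 CPM in chow, and 7 of 8 rose. Endothelial cells can carry class II molecules, and the part of either cell type in these levels was not tested.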
